A study of Mus musculus with 39 samples.

Results

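The 10 genes described here carry the class I pathway of antigen presentation: H2-K1 and H2-D1, the classical class I heavy chains of the mouse; B2m, their light chain; Tap1, Tap2 and Tapbp, which bring peptides to them; Psmb8, Psmb9 and Psmb10, the catalytic subunits of the immunoproteasome; and Nlrc5, the class I transactivator. They were chosen by gene symbol, and all 10 were found among the 24537 genes counted in kidney, liver and lung and among the 52508 counted in skin. RNA from whole perfused tissue was counted at the 3′ ends of transcripts in 39 libraries. All mice were male C57BL/6 mice of the Prf1-/- genotype, the young controls included, and so lacked perforin, the pore-forming protein of cytotoxic lymphocytes; no library came from a mouse with perforin. Young mice were untreated and 3 months old (4 libraries each of kidney, liver and lung, 3 of skin). Old mice were 20 months old and had been injected intraperitoneally from the age of 18 months, for 2 months, on 2 consecutive days of each month, with DMSO-based vehicle (3 libraries per tissue) or with 25 mg/kg of ABT-737 (3 libraries per tissue), an inhibitor of anti-apoptotic BCL-2 family proteins that was given to eliminate senescent cells. The young mice had no injections, so age and vehicle cannot be told apart in the comparison of old vehicle-treated with young mice. Vehicle- and ABT-737-treated libraries carry the numbers 3, 4 and 5 in the labels, which do not say that each came from a separate mouse; the study counts mice as its replicates, but which libraries of different tissues share a mouse is not given in the sources used here. The treatment label of ABT-737 replicates 4 and 5 reads ABT-738 and ABT-739 in each tissue, and these libraries were grouped by their titles.

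Class I molecules display peptides cut from proteins inside the cell to CD8+ T cells, and their absence is sensed by natural killer cells. The proteasome cuts the proteins, the TAP transporter carries the peptides into the endoplasmic reticulum, and tapasin, the product of Tapbp, holds the transporter next to an empty heavy chain and light chain until a peptide binds. Most nucleated cells express the pathway, leukocytes strongly, and interferons raise it: interferon-gamma acts in part through IRF1 and NLRC5, and the 3 immunoproteasome subunits then replace the constitutive subunits in newly assembled proteasomes.

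Promoters are shown because the motifs through which interferon and NF-kappa-B are known to act on class I genes can be read in some of them. The part of these motifs in the changes described below was not tested. RefSeq promoter windows of 300 bases on GRCm38.p6, from 250 bases before to 50 after the start, were given for 8 of the 10 genes; Tap2 and Nlrc5 are named only. The windows are printed 5′ to 3′ on the gene's strand, with matches on either strand in capitals: the kappa-B motif (GGG, any 2 bases, TTCCC), the full interferon-stimulated response element (GAAA, any 2 bases, GAAA), its relaxed form (GAA, any 2 bases, GAAA), the gamma-activated site (TTC, any 3 bases, GAA), and TGACG, the core of the cyclic AMP response element. H2-K1 lies on the minus strand (chr17:34000284-34000583) and H2-D1 on the plus strand (chr17:35262844-35263143); B2m (chr2:122147437-122147736), Tap1 (chr17:34187306-34187605) and Psmb8 (chr17:34197945-34198244) lie on the plus strand.
H2-K1: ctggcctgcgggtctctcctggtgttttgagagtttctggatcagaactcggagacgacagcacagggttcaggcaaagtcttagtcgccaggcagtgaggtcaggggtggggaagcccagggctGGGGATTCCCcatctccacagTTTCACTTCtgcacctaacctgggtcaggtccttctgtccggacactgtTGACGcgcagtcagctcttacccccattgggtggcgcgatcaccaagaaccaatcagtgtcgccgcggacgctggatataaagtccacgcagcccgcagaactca
H2-D1: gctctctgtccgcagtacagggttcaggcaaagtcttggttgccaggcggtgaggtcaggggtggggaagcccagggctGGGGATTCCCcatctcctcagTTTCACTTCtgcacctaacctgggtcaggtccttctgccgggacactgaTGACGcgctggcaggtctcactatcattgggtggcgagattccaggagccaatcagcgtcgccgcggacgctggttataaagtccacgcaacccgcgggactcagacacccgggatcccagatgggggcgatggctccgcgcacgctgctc
B2m: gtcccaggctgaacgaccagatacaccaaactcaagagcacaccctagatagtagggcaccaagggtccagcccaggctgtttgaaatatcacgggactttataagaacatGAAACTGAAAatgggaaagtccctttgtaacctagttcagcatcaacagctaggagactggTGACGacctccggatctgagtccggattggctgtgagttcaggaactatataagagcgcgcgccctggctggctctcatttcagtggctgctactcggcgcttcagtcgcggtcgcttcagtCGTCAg
Tap1: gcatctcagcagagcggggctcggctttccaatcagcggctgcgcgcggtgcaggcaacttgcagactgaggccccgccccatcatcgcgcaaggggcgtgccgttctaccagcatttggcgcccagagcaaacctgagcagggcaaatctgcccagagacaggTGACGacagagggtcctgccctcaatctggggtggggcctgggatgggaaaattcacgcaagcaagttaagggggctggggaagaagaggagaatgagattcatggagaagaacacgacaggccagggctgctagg
Psmb8: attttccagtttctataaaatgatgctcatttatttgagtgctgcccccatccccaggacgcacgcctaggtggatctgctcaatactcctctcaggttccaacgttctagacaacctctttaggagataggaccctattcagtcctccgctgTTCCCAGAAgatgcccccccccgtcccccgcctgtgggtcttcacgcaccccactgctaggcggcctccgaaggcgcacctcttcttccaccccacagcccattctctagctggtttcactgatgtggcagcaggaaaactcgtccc

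Both heavy chain promoters held the kappa-B motif, the relaxed interferon element and the TGACG core in this order, with 21 bases between the starts of the first and the second and 49 between the second and the third. In the H2-K1 window printed here these matches began 125, 104 and 55 bases before the start, and in H2-D1 171, 150 and 101 bases before it. H2-K1 has another RefSeq start, from which the same matches began 111, 90 and 41 bases upstream. The B2m window held the full interferon element 139 bases before the start and TGACG 78 bases before and 44 bases after it. Tap1 and Psmb9 are transcribed away from each other from starts 226 bases apart: their windows share 275 bases and a single TGACG, which lies 86 bases before the start of Tap1 and 144 bases before that of Psmb9. Psmb8 held a gamma-activated site 97 bases before its start, and the windows of Tapbp and Psmb10 held none of the 5 motifs. Of all 32851 RefSeq promoter windows of this length, 1.75% held the kappa-B motif, 3.44% the full and 7.52% the relaxed interferon element, 8.3% the gamma-activated site and 20.8% TGACG. A match is a string of letters in the window and was not measured as a bound site.

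On mm10, B2m lies on chromosome 2, Psmb10 and Nlrc5 on chromosome 8 and the rest on chromosome 17, where Tap1, Psmb8, Psmb9 and Tap2 lie next to each other between bases 34182099 and 34216321. Several of the genes overlap a gene on the other strand: B2m overlaps Patl2, Tap1 overlaps Psmb9, Tap2 overlaps Gm20496 and Gm15821, Psmb8 overlaps Gm20496, Tapbp overlaps Gm19412 and Psmb10 overlaps Gm16156. Use of strand during counting is not stated, and without it reads from a stretch that such a pair shares cannot be told apart. The annotated ranges of Tap1 and Psmb9 overlap only near their starts, away from the 3′ ends that were counted. For the other pairs the place of the overlap is not given here. Of the 50-base words in the last 500 bases of the H2-K1 transcript 0.443% also occurred in H2-D1, and of those of H2-D1 9.53% occurred in transcripts of other genes; the other 8 genes shared none.

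Total counts ranged from 1431814 to 3513311 in kidney, 223957 to 891116 in liver, 1046508 to 2600092 in lung and 1493411 to 3842808 in skin. Levels are given as counts-per-million (CPM), scaled within a tissue by edgeR's TMM factors, and are compared between groups for 1 gene, not between genes. Each tissue held the RNA of its own cell type, with 0 defining markers at 0: summed levels were 10760 to 13030 CPM for kidney tubule markers in kidney, 59900 to 93130 for hepatocyte markers in liver, 27590 to 60270 for alveolar and airway markers in lung and 10060 to 34930 for keratinocyte markers in skin. A few libraries stood apart. Liver vehicle replicate 3 was the shallowest of all (223957 counts). Lung ABT-737 replicate 4 held adipocyte markers at a summed 4979 CPM and hepatocyte markers at 821, against at most 215 and 266 in the other lungs. Skin libraries held skeletal muscle markers at 48140 to 67280 CPM in young mice, 7482 to 34840 with vehicle and 12400 to 40070 with ABT-737. Young skin thus did not overlap either old group.

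In kidney, RNA of the class I pathway genes was high in old vehicle-treated mice and close to the young level in old mice given ABT-737. Class I protein and presentation of peptides were not measured in these libraries. All 10 genes rose with age (old vehicle against young; edgeR's quasi-likelihood test, Benjamini-Hochberg adjusted p from 7.09e-07 to 0.000703), where 7.75% of the 11123 genes tested were called higher. With ABT-737, 9 of 10 fell against vehicle, where 1.21% of genes were called lower; the exception was Tapbp, with an adjusted p of 0.0767. In all 10 the highest ABT-737-treated kidney lay under the lowest vehicle-treated one, as it did for 8.47% of all genes tested, and every young kidney lay under every vehicle-treated one, as it did for 14.8%. The median log2 fold change of the 10 was 2.02 with age and -1.70 with ABT-737, against 0.0063 and 0.0090 over all genes tested. Comparisons with age and with ABT-737 share the vehicle libraries, so the 2 directions are not independent.

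**Figure D1:**
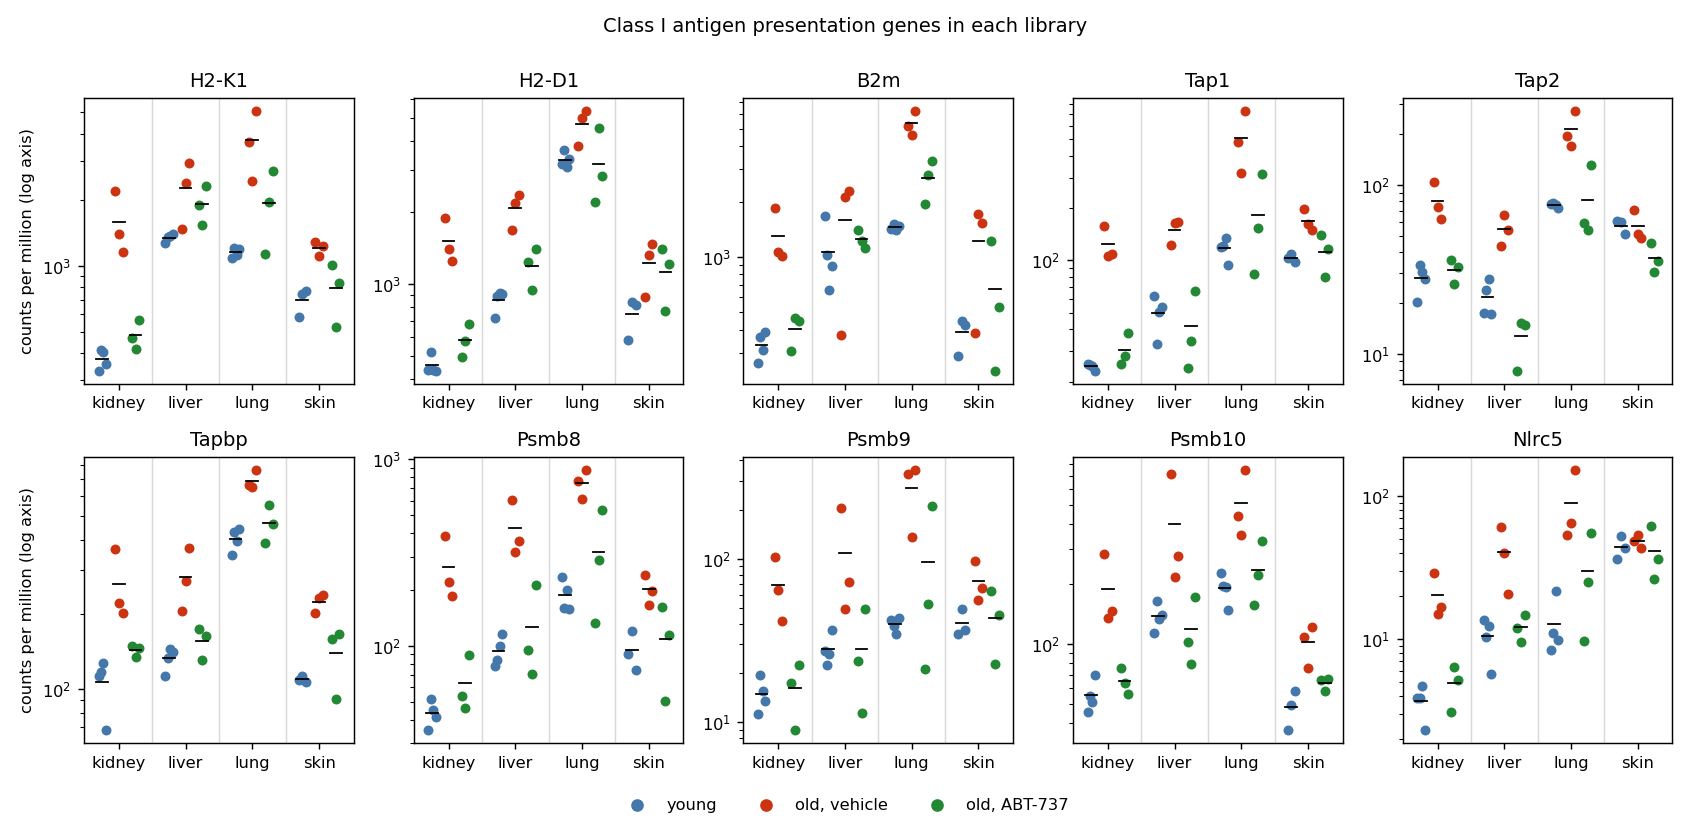
Levels in CPM (log axis) of the 10 genes in all 39 libraries, by tissue; each point is 1 library, black bars are group means, blue is young, red is old vehicle and green is old ABT-737. Each tissue is scaled on its own. In kidney the red points stand above the blue and green points in every panel, and in skin the groups lie closer together.

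The heavy chains changed about as much as their light chain in kidney. H2-K1 was at 332, 412, 402 and 357 CPM in the young kidneys, at 2186, 1389 and 1158 with vehicle and at 469, 416 and 567 with ABT-737. The vehicle values lay apart from both other groups, and kidney vehicle replicate 3 was the highest. H2-K1 rose 4.2-fold with age (log2 2.07 ± 0.19 SE, adjusted p = 5.33e-06) and was 3.26-fold lower with ABT-737 (log2 -1.71 ± 0.21, adjusted p = 0.000504). H2-D1 was at 438, 522, 437 and 434 CPM in young kidneys, 1901, 1403 and 1251 with vehicle and 495, 578 and 684 with ABT-737, a change of 1.73 ± 0.17 on the log2 scale with age and of -1.38 ± 0.18 with ABT-737. The same order of groups held without overlap between vehicle and either other group. B2m was at 264, 363, 310 and 389 CPM in young kidneys, 1844, 1062 and 1005 with vehicle and 305, 461 and 443 with ABT-737 (log2 1.98 ± 0.22 and -1.69 ± 0.24). Within a kidney the log2 ratio of B2m to H2-K1 counts hardly moved: its mean was -0.19 in young, -0.28 in vehicle-treated and -0.27 in ABT-737-treated kidneys.

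Among the transport and loading genes, Tap1 had the largest log2 changes in kidney. Tap1 was at 25.3, 24.8, 24.6 and 23.1 CPM in young kidneys, at 158, 107 and 109 with vehicle and at 25.2, 28.2 and 37.9 with ABT-737. It had the smallest adjusted p of the 10 in both comparisons, rising 5.10-fold with age (log2 2.35 ± 0.18, adjusted p = 7.09e-07) and falling with ABT-737 (log2 -2.04 ± 0.20, adjusted p = 6.34e-05). Tap2, the other subunit, was at 20.2, 33.4, 30.4 and 27.7 CPM in young, 104, 73.9 and 62.9 in vehicle-treated and 36.0, 25.7 and 32.7 in ABT-737-treated kidneys, with log2 changes of 1.51 ± 0.20 and -1.36 ± 0.23. Tapbp was at 113, 117, 127 and 67.9 CPM in young kidneys, 368, 222 and 202 with vehicle and 149, 134 and 146 with ABT-737. Its rise with age passed the test (log2 1.31 ± 0.21, adjusted p = 0.000703), while its difference with ABT-737 was -0.89 ± 0.23 on the log2 scale.

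Of the immunoproteasome subunits, Psmb8 and Psmb9 had larger log2 changes in kidney than Psmb10; differences between genes were not tested. Psmb8, the chymotrypsin-like subunit that takes the place of Psmb5, was at 35.2, 51.5, 45.1 and 41.5 CPM in young kidneys, at 389, 220 and 184 with vehicle and at 53.4, 46.5 and 88.8 with ABT-737. It rose 6.08-fold with age (log2 2.60 ± 0.25, adjusted p = 7.54e-06) and was 4.22-fold lower with ABT-737 (log2 -2.08 ± 0.28, adjusted p = 0.000819). Psmb9, which takes the place of Psmb6, was at 11.2, 19.3, 15.5 and 13.4 CPM in young, 103, 64.3 and 41.8 in vehicle-treated and 17.5, 8.91 and 22.3 in ABT-737-treated kidneys. Its fall with ABT-737 was the largest of the 10 (log2 -2.11 ± 0.33, adjusted p = 0.00365). Psmb10, which takes the place of Psmb7, was at 45.5, 54.9, 51.2 and 69.7 CPM in young, 284, 135 and 146 in vehicle-treated and 75.5, 63.8 and 56.1 in ABT-737-treated kidneys (log2 1.78 ± 0.23 and -1.54 ± 0.25). For each subunit the 3 vehicle-treated kidneys were the highest of the 10.

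Nlrc5, which drives transcription of the class I genes in the nucleus, was counted at 5 to 74 reads per kidney and at 3.86, 3.86, 4.68 and 2.31 CPM in young, 29.1, 15.1 and 16.9 in vehicle-treated and 3.08, 6.43 and 5.19 in ABT-737-treated kidneys. The vehicle-treated kidneys stood apart, and the change was 2.44 ± 0.31 on the log2 scale with age and -2.07 ± 0.35 with ABT-737 (adjusted p = 0.0057).

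**Figure D2:**
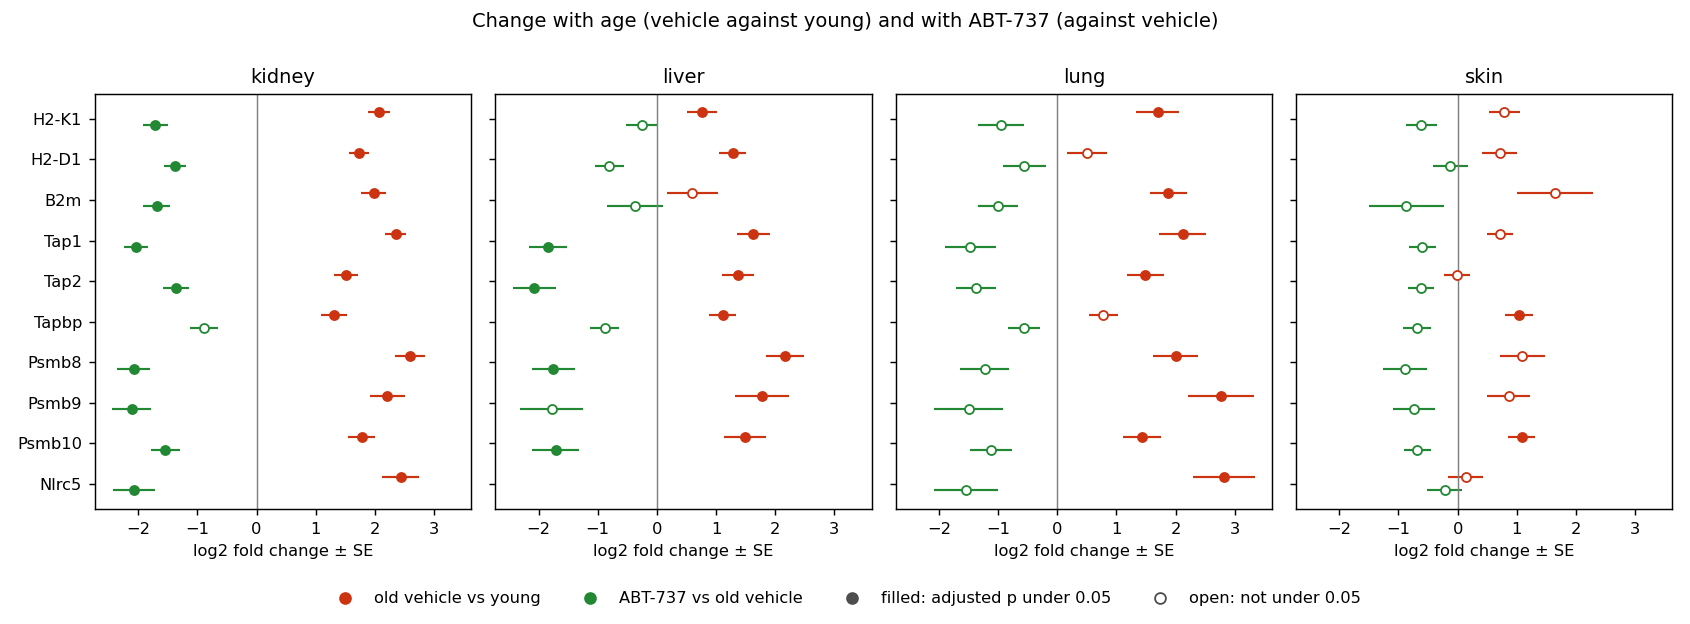
Log2 fold change ± SE of each gene from edgeR, for old vehicle against young (red) and ABT-737 against old vehicle (green), by tissue; filled points have an adjusted p under 0.05. In kidney every red point lies right of 1.31 or on it and every green point left of -0.89 or on it; in lung and skin all green points are open. Nlrc5 was not tested in liver.

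The sums of general leukocyte, T cell and macrophage markers moved with the genes in kidney, and that of B cell markers did so only with age. The summed level of 8 leukocyte markers, Ptprc and Coro1a among them, ranged over 109 to 130 CPM for young, 432 to 710 for vehicle and 180 to 268 for ABT-737 kidneys, with at most 1 of the 8 at 0 in a library. T cell markers summed to 7.72 to 9.86, 40.4 to 75.9 and 9.4 to 24.9 CPM in the same order, and macrophage markers to 214 to 289, 762 to 1309 and 312 to 533. B cell markers overlapped between the old groups, at 2.64 to 4.62, 8.64 to 93.7 and 7.42 to 25.4 CPM, with medians of 9.39 with vehicle and 23.6 with ABT-737. In bulk tissue fewer cells of a type and less RNA per cell cannot be told apart, and the part of leukocyte number in the class I result was not tested. Among the vehicle-treated kidneys the order differed: replicate 3 had the highest level of all 10 genes and the lowest leukocyte sum (432 CPM, against 710 and 527). Without that library 9 of 10 genes still passed the test with ABT-737.

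**Figure D3:**
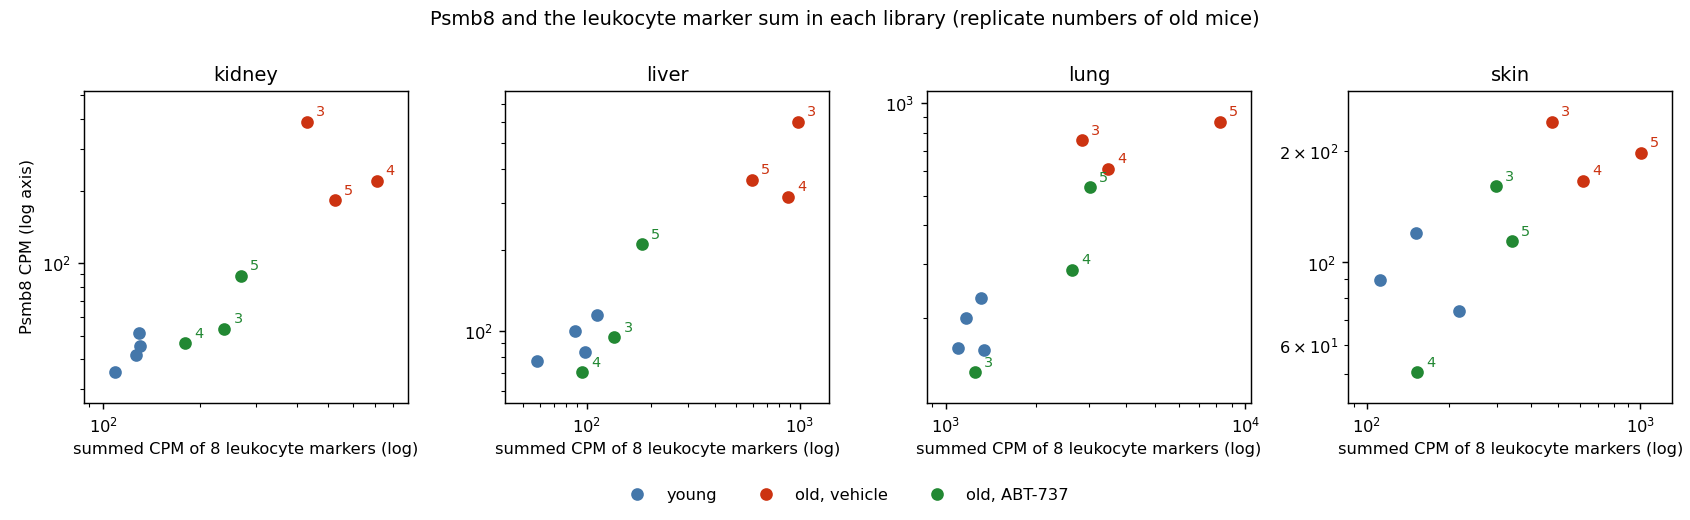
Psmb8 CPM against the summed CPM of 8 leukocyte markers, 1 point per library, both on log axes, by tissue; numbers are the replicate numbers of old mice, blue is young, red is vehicle and green is ABT-737. In kidney and liver the vehicle libraries lie at the upper right, and kidney vehicle replicate 3 (389 CPM of Psmb8) lies left of the other 2.

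In liver, 8 of the 9 genes tested rose with age, where 11.7% of the 5583 genes tested were called higher; B2m did not pass. These 8 were also the ones that did not overlap with young livers, which held for 16% of all genes. Against vehicle, Tap1, Tap2, Psmb8 and Psmb10 fell with ABT-737, which is 4 of 9 where 2.85% of genes were called lower, and 6 of 9 did not overlap between the groups (9.67% of all genes). Without ABT-737 replicate 4 Tap2 alone passed, and Tap1, Psmb8 and Psmb10 were at adjusted p of 0.0586, 0.0872 and 0.158; without ABT-737 replicate 3 Psmb8 and Psmb10 did not pass. The median of the 9 was 1.37 with age and -1.71 with ABT-737 on the log2 scale, against 0.02 and -0.03 over all genes. Nlrc5 had 3 to 34 reads per library and was not tested; its level ranged over 5.76 to 13.6 CPM for young, 20.6 to 61.1 for vehicle and 9.48 to 14.9 for ABT-737 livers, the last without overlap with vehicle.

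Tap1, Tap2 and the immunoproteasome subunits had the largest log2 differences with ABT-737 in liver, though differences between genes were not tested. Tap2 was at 17.4, 23.8, 27.7 and 17.3 CPM in young livers, 43.6, 66.7 and 53.9 with vehicle and 7.93, 15.2 and 14.9 with ABT-737 (log2 with ABT-737 -2.07 ± 0.36, adjusted p = 0.0039). The drug-treated livers lay under the young ones too, with 2 to 8 reads each, though the difference from young did not pass (log2 -0.70 ± 0.39, adjusted p = 0.285). Tap1 was at 62.0, 32.8, 50.7 and 53.7 CPM in young, 122, 164 and 166 in vehicle-treated and 23.8, 34.1 and 66.8 in ABT-737-treated livers (log2 -1.84 ± 0.33 with ABT-737, adjusted p = 0.00438). Psmb8 was at 77.5, 83.5, 99.8 and 115 CPM in young livers, 602, 316 and 366 with vehicle and 95.1, 70.2 and 210 with ABT-737, with log2 changes of 2.16 ± 0.32 with age and -1.75 ± 0.36 with ABT-737. Psmb10 was at 114, 164, 134 and 140 CPM in young, 716, 217 and 276 in vehicle-treated and 103, 79.7 and 173 in ABT-737-treated livers. The shallow vehicle replicate 3 was the highest for Psmb8 and Psmb10, and without it 6 genes passed with ABT-737. Psmb9 was highest in the same library (205 CPM, against 49.2 and 71.9) and did not pass with ABT-737 (log2 -1.78 ± 0.54, adjusted p = 0.0825).

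Class I chains themselves moved less in liver. H2-K1 was at 1262, 1353, 1362 and 1389 CPM in young livers, 1462, 2392 and 2944 with vehicle and 1882, 1536 and 2302 with ABT-737. The old groups overlapped (log2 -0.25 ± 0.28, adjusted p = 0.735), and the rise with age (log2 0.76 ± 0.26, adjusted p = 0.0427) did not pass in 9 of 10 fits that each left out 1 library. H2-D1 was at 722, 894, 920 and 909 CPM in young, 1689, 2201 and 2367 in vehicle-treated and 1244, 945 and 1406 in ABT-737-treated livers, without overlap, with a log2 difference of -0.80 ± 0.25 with ABT-737 (adjusted p = 0.0925). B2m was at 1665, 1021, 660 and 888 CPM in young livers, 375, 2126 and 2282 with vehicle and 1395, 1220 and 1114 with ABT-737. Vehicle replicate 3, at 375 CPM from 86 reads, was the lowest of all 10 livers for B2m. Its log2 ratio of B2m to H2-K1 counts was -1.96, the lowest of the livers. Tapbp was at 205 to 370 CPM with vehicle and 131 to 174 with ABT-737 (log2 -0.89 ± 0.25, adjusted p = 0.0591).

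Leukocyte markers summed to 58.1 to 111 CPM for young, 599 to 982 for vehicle and 94.8 to 181 for ABT-737 livers, and macrophage markers to 412 to 587, 2099 to 2260 and 343 to 654; at most 1 leukocyte and 2 macrophage markers of 8 were at 0 in a library. The sum of hepatocyte markers went the other way, at 73410 to 89180, 59900 to 72640 and 84240 to 93130 CPM. The single markers did not all do so: of 7 tested, 5 were lower with age and 2 were lower with ABT-737. Of the 7, 0 were called in either comparison, where 10.8% of all genes were called lower with age and 1% higher with ABT-737. The part of these cells in the liver values was not tested.

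The young tissues differed in the RNA level of class I genes before any treatment. With kidney, liver and lung scaled together, 9 of the 10 genes were lower in young kidney than in young liver (13.7% of the 13107 genes tested were called lower) and all 10 were higher in young lung than in young kidney (32.6% called higher). H2-K1 had its highest level in liver (1830 ± 84.0 CPM, SD, n = 4), followed by lung (919 ± 52.4) and kidney (337 ± 37.2), and all 3 steps passed the test. H2-D1 had another order, with lung (2660 ± 209) over liver (1176 ± 135) over kidney (411 ± 43.5), and each step passed. Tapbp and Tap2 were also higher in lung than in liver (log2 0.83 ± 0.23 and 1.02 ± 0.29, adjusted p = 0.00225 and 0.00327). The other 6 genes, B2m, Tap1, Psmb8, Psmb9, Psmb10 and Nlrc5, did not differ beyond their spread between lung and liver (adjusted p from 0.196 to 0.699). Of the lung-liver comparison's 13107 genes 24.6% were called lower in lung and 37.6% higher, so 4 of 10 is no larger share than that of all genes. Tap2 was close in kidney and liver, at 25.1 ± 5.28 and 29.5 ± 7.28 CPM.

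**Figure D4:**
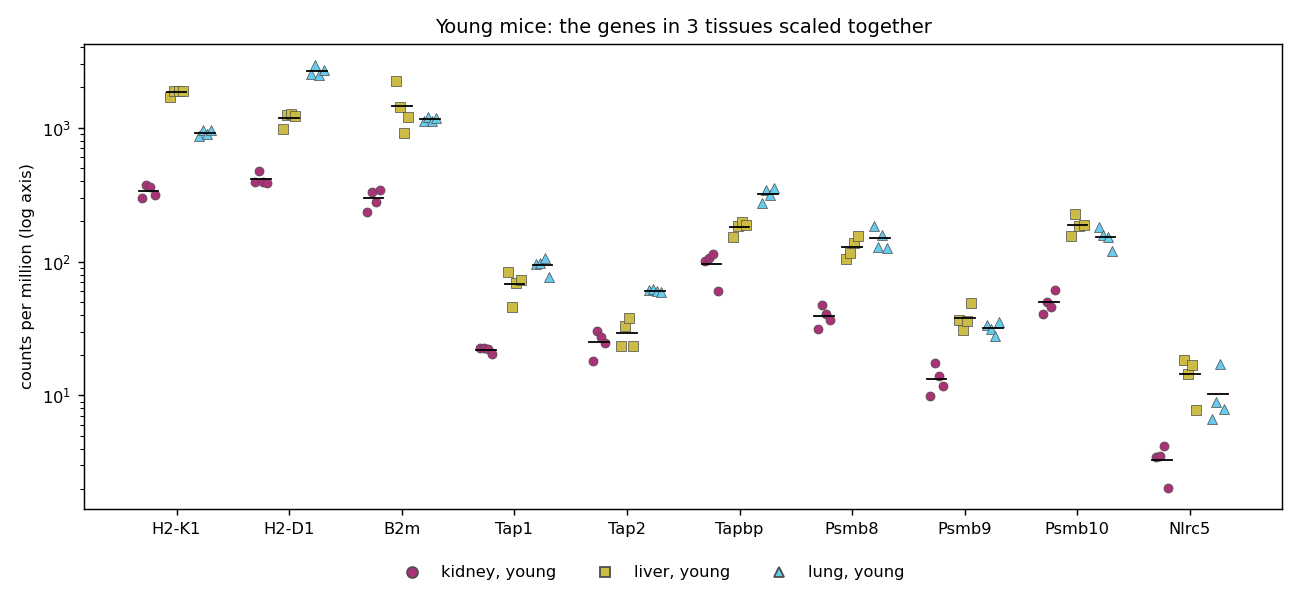
Levels in CPM (log axis) of the 10 genes in the 12 libraries of young kidney, liver and lung, scaled together; each symbol is 1 library and bars are means. H2-K1 is highest in liver and H2-D1 in lung, and the kidney points lie lowest for 9 of the genes without overlap.

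In lung, where leukocytes are plentiful, 8 of 10 genes rose with age, where 8.15% of the 11949 genes tested were called higher, and all 10 stood above the young lungs without overlap (15.1% of all genes). H2-D1 and Tapbp did not pass, at 0.50 ± 0.34 and 0.78 ± 0.25 on the log2 scale. Nlrc5 had the largest rise, 7.06-fold (log2 2.82 ± 0.52, adjusted p = 0.00485), from 8.34, 11.1, 21.7 and 9.88 CPM in young lungs to 53.7, 64.8 and 152 with vehicle. Psmb9 followed at 6.81-fold (log2 2.77 ± 0.56), from 42.2, 38.9, 34.7 and 43.7 CPM to 332, 136 and 348. B2m rose 3.69-fold, from 1415, 1511, 1405 and 1464 CPM to 5175, 4611 and 6266 (adjusted p = 0.00316). The vehicle-treated lungs spread more than the young ones, and replicate 5 was the highest for all 10 genes. With the replicate number as a block 3 of the 10 passed, B2m, Tap1 and Psmb8 (adjusted p = 0.0341, 0.0434 and 0.0483), in a fit that called 333 genes; vehicle-treated and young lungs have only the numbers 3 and 4 in common.

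With ABT-737 none of the 10 passed in lung, nor did any of the 11949 genes (edgeR's quasi-likelihood test), while 1919 genes (16.1%) and 8 of the 10 had an unadjusted p under 0.05. DESeq2 called 301 genes there, with B2m, Tap1 and Tap2 among them. The log2 differences of the 10 ran from -1.55 to -0.56 with a median of -1.18, against 0.04 over all genes, and 6 of 10 did not overlap between the groups, which held for 6.63% of genes. Vehicle- and ABT-737-treated lungs of the same number deviated together, but so did ABT-737 replicate 3 and vehicle replicate 4 (r = 0.30). Pairing by number is therefore not established. With the number as a replicate block 1 of the 10 passed, Tap2 (log2 -1.47, edgeR adjusted p = 0.0394). That fit called 99 genes. Tap2 was at 195, 170 and 275 CPM in vehicle-treated and 59.3, 53.7 and 131 in ABT-737-treated lungs, and at 72.8 to 77.9 in young lungs. Psmb8 was at 759, 612 and 872 CPM with vehicle and 133, 287 and 533 with ABT-737 (log2 -1.23 ± 0.41), and Tap1 at 482, 321 and 731 and at 83.1, 153 and 315 (log2 -1.47 ± 0.43). In both genes the ABT-737-treated lungs ran from under the young lungs in replicate 3 to just under the lowest vehicle value in replicate 5. Without ABT-737 replicate 5, Tap1, Tap2, Psmb8 and Psmb9 passed; without replicate 4, which held the adipocyte and hepatocyte markers, 0 of 10 passed while 676 genes did.

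Leukocyte markers summed to 1100 to 1341 CPM in young, 2845, 3476 and 8196 in vehicle-treated and 1252, 2640 and 3022 in ABT-737-treated lungs, with at most 1 of 8 at 0. Vehicle replicate 5 had the highest leukocyte sum and the highest level of all 10 genes, and ABT-737 replicate 3 had the lowest sum of the old lungs and the lowest level of 9 of the 10, all but Tap2. The part of leukocytes was not tested.

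Of the 10 genes, 1, H2-D1, passed the test of a difference in the change with age between lung and kidney, where 8.04% of all genes were called, so the share of the 10 was close to that of all genes. The log2 change of H2-D1 with age was 1.73 in kidney and 0.50 in lung, a difference of -1.22 ± 0.38 (adjusted p = 0.0402). In lung H2-D1 was at 3193, 3671, 3099 and 3361 CPM in young mice, 3789, 4985 and 5341 with vehicle and 2207, 4534 and 2845 with ABT-737. The call did not hold in 11 fits that each left out 1 library, with no filter beyond a summed count of 1 or with the replicate number as a block (adjusted p = 0.0594). None of the other 9 genes passed any of the 6 tests of a difference between tissues in the change with age or with ABT-737 (edgeR), where DESeq2 called 1, in the kidney-liver difference with age. For the change with ABT-737 the share of all genes called was 0.0839% between kidney and liver, 0% between lung and kidney and 0.29% between lung and liver, and for the change with age it was 0.786% between kidney and liver and 11.4% between lung and liver. At an unadjusted p under 0.05 the change with ABT-737 gave 2 of the 10 genes (7.35% of all genes), 0 (9.3%) and 0 (12.3%) in the same order of tissue pairs. The change with age gave 2 (11.4%), 1 (23.9%) and 3 (25.6%).

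Skin moved least. With age 2 of the 10 genes rose, Psmb10 and Tapbp, where 5.84% of the 14224 genes tested were called higher; 7 of 10 did not overlap, which held for 19.5% of genes. Psmb10 was at 36.9, 49.5 and 58.2 CPM in young skin, 109, 76.2 and 122 with vehicle and 66.2, 58.0 and 67.0 with ABT-737 (log2 with age 1.08 ± 0.23, adjusted p = 0.0248). Tapbp was at 109, 113 and 106 CPM in young, 203, 232 and 239 in vehicle-treated and 159, 90.9 and 166 in ABT-737-treated skin (log2 with age 1.04 ± 0.24, adjusted p = 0.0283). Neither call held in every fit that left out 1 library. Young skin held more skeletal muscle RNA than either old group, and the part of this in the comparisons with young skin was not tested. Tap2 and Nlrc5 differed little between young and vehicle-treated skin, at -0.01 ± 0.22 and 0.14 ± 0.30 on the log2 scale.

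With ABT-737, 0 of the 10 genes and 0 of 14224 genes passed in skin, with 6 of the 10 and 1134 genes (7.97%) at an unadjusted p under 0.05; DESeq2 called 60 genes and none of the 10. The log2 differences ran from -0.89 to -0.12 with a median of -0.65, against 0.04 over all genes, and 6 of 10 did not overlap (5.81% of genes). ABT-737 replicate 4 was the lowest of the 9 skin libraries for H2-K1, B2m, Tap1, Tap2, Tapbp, Psmb8, Psmb9 and Nlrc5, and it also had a leukocyte sum near the young level (153 CPM). B2m spread widely, at 287, 448 and 426 CPM in young, 385, 1714 and 1534 in vehicle-treated and 1220, 239 and 531 in ABT-737-treated skin. Leukocyte markers summed to 111 to 217, 477 to 1007 and 153 to 339 CPM in young, vehicle-treated and ABT-737-treated skin, with at most 2 of 8 at 0 in a library. Endothelial markers summed to 72.4 to 106, 141.5 to 219.6 and 92.8 to 121.9 CPM in the same order. The part of either cell type was not tested.

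Against young mice, ABT-737-treated old mice did not differ past the threshold in any of the genes tested here, by edgeR. That is 0 of 10 for kidney, where 2.12% of all genes were called, 0 of 9 for liver (8.4%), 0 of 10 for lung (2.55%) and 0 of 10 for skin (5.17%). At an unadjusted p under 0.05 there was 1 gene in kidney (16.7% of all genes), 0 in liver (23.9%), 3 in lung (20.5%) and 1 in skin (30%). DESeq2 called 1 in lung and 0 elsewhere. The kidney differences were small and all above 0, from 0.10 for Psmb9 to 0.53 for Psmb8 on the log2 scale. In lung Nlrc5 and Psmb9 stood 1.27 above young on the log2 scale, with adjusted p of 0.198 and 0.211. These comparisons share libraries with those above.

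The RNA balance of proteasome subunits can be read within a library. The ratio of an immunoproteasome subunit to the constitutive subunit it replaces does not depend on library scaling. As a ratio of RNA in bulk tissue it does not show which subunits sit in assembled proteasomes. The part of leukocyte number in it was not tested. In kidney the mean log2 ratio of Psmb8 to Psmb5 counts was -0.38 ± 0.33 (SD, n = 4) in young, 2.57 ± 0.39 (n = 3) in vehicle-treated and 0.32 ± 0.67 (n = 3) in ABT-737-treated mice, so it was 7.71-fold higher in vehicle-treated than in young kidneys and 4.74-fold lower with ABT-737 than with vehicle. For Psmb9 to Psmb6 the 2 folds were 4.18 and 4.64, and for Psmb10 to Psmb7 they were 4.44 and 2.99, without overlap of the groups in any of the 3 pairs. In liver the ratio of Psmb8 to Psmb5 was 4.52-fold higher with age and 4.72-fold lower with ABT-737, again without overlap. Vehicle replicate 3 had 4 Psmb5 reads and a ratio of 34.5, against 12.3 and 8.14 in the other vehicle-treated livers, and without it the log2 differences of 2.18 and -2.24 came to 1.58 and -1.64. In liver Psmb9 to Psmb6 stood apart in both comparisons, and Psmb10 to Psmb7 overlapped between the old groups. In lung all 3 ratios were higher with age without overlap and overlapped between vehicle and ABT-737. In skin Psmb8 to Psmb5 stood apart in both comparisons (4.2-fold and 2.5-fold), as did Psmb10 to Psmb7, while Psmb9 to Psmb6 overlapped in both (log2 differences of 0.52 with age and -0.83 with ABT-737). The ratios are given as a description with no test; an exact two-sided permutation p could not go below 0.1 for 3 libraries against 3 or below 0.0571 for 4 against 3. The constitutive subunits themselves were called in 0 of 3 cases with ABT-737 in each tissue, while Psmb7 fell with age in kidney (log2 -0.45 ± 0.14, adjusted p = 0.0384) and Psmb5 in skin (log2 -0.96 ± 0.24, adjusted p = 0.0359).

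**Figure D5:**
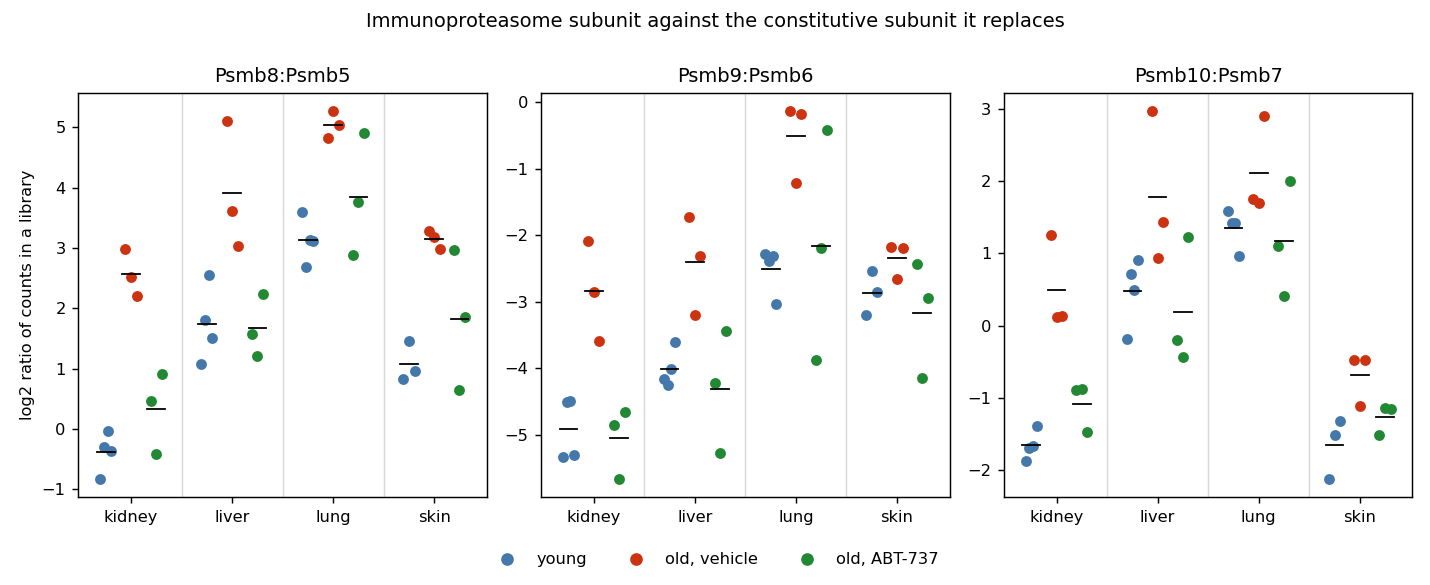
Log2 ratio of the counts of an immunoproteasome subunit to those of the constitutive subunit it replaces, within each library, by tissue; points are libraries, bars are means, blue is young, red is vehicle and green is ABT-737. In kidney and liver the red points of Psmb8 to Psmb5 lie above all blue and green points.

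Other genes of the pathway were read from lists. Nonclassical class I genes followed in part: with ABT-737, 2 of 8 tested fell in kidney (1.21% of all genes were called lower) and 2 of 7 in liver (2.85%), and with age kidney had 6 of 8 that rose (7.75% of all genes were called higher), liver 4 of 7 (11.7%), lung 8 of 13 (8.15%) and skin 0 of 12 (5.84%). In these counts genes with identical values in every library are taken once, which applies to H2-Q7 and H2-Q9 outside skin. H2-Q7, a Qa-2 molecule, fell from 132 ± 11.7 to 40.5 ± 4.86 CPM in kidney (log2 -1.71 ± 0.16, adjusted p = 6.25e-05); H2-Q9 had identical counts in all libraries of that table, so the 2 cannot be told apart. H2-T23, the Qa-1 molecule that presents leader peptides of other class I chains, fell from 90.8 ± 20.4 to 31.6 ± 8.44 CPM (log2 -1.52 ± 0.25, adjusted p = 0.00422). Of the interferon-gamma pathway, 6 of 14 genes fell with ABT-737 in kidney and 4 of 11 in liver, and 11 of 14, 6 of 11, 7 of 15 and 6 of 14 rose with age in kidney, liver, lung and skin, against the same shares of all genes. Irf1, a transcription factor that acts on class I promoters, fell from 102 ± 33.4 to 33.8 ± 10.1 CPM in kidney (log2 -1.60 ± 0.25, adjusted p = 0.00308) and by 1.52 on the log2 scale in liver (adjusted p = 0.0399).

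Other genes of the machinery were compared with ABT-737 where 1.35% of all genes in kidney and 3.85% in liver were called in either direction, so lists of this size could hold 0 calls at the background share. Of the proteasome activators and assembly factors 1 of 9 fell in kidney, Psme1, a subunit of the interferon-inducible activator PA28 (log2 -0.89 ± 0.19, adjusted p = 0.0279), and 0 of 9 in liver. The other subunits of the 20S core were called in 0 of 11 cases in kidney and 0 of 9 in liver, with medians of 0.07 and 0.02 on the log2 scale. Loading helpers such as calnexin and ERp57 were called in 0 of 9 and 0 of 7 cases; Canx was at 128 ± 22.6 CPM with ABT-737 and 78.5 ± 7.42 with vehicle in kidney (log2 0.70 ± 0.20, adjusted p = 0.0957). The factors that bind class I promoters with NLRC5, the RFX, NF-Y and CREB/ATF1 proteins, were called in 0 of 8 cases in kidney and 0 of 3 in liver. In lung and skin, where 0 genes were called with ABT-737, 0 members of any list were called.

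Log2 profiles over the 39 libraries, centred within each tissue, were compared with the mean of the members tested in every tissue, which leaves out Nlrc5. The gene closest to that mean was H2-Q7. Its root mean square difference was 0.228 among 4973 genes ranked, whose median was 0.804. H2-T22, Parp14, Samhd1 and H2-T23 were the next closest genes outside the 10, at 0.364 to 0.392. H2-K1 was the closest member (0.246), and B2m the farthest (0.582, rank 109). The other members ranked at 3 to 7, 11 and, for Psmb9, 43, and Nlrc5 was not ranked. The ranked members are part of that mean, so their closeness to it was in part fixed in advance. Of the pairs of members H2-D1 and Tapbp were closest (0.267) and B2m and Psmb9 farthest apart (0.956).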

How the data were processed

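RNA of perfused kidney, liver, lung and skin was made into 3′-end libraries with a protocol derived from MARS-seq. The authors deposited raw counts per gene, as whole numbers, with kidney, liver and lung together in a table and skin in a separate one; the submitters' processing notes name bcl2fastq, HISAT 0.1.5, HOMER and mm10. In the skin table most counting windows run 2000 bases past the annotated 3′ end, so levels were not compared between the tables. Whether molecular barcodes were collapsed is not given in the sources used here, so no interval was drawn from single counts. The standard errors and p-values of the edgeR fits include the spread between libraries of a group. All columns of counts were mapped to samples.

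A count model was used because the values are counts. Genes were filtered with filterByExpr, scaled by TMM and tested with edgeR 4.0.16 (quasi-likelihood, limma 3.58.1, R 4.3.3), the 3 groups of a tissue in 1 fit, with Benjamini-Hochberg adjustment over all genes tested and a threshold of 0.05. Differences between tissues came from a joint fit of kidney, liver and lung. Alternatives were DESeq2 1.42.0, 2 other filters, fits of only the 2 groups compared, a replicate block and leaving out each library. Same-numbered vehicle and ABT-737 lungs deviated together (r = 0.18, 0.30 and 0.43 across genes), which met the rule that every pair exceed 0.1. Other tissues did not meet it. Lungs of unlike number gave r from -0.57 to 0.30, the highest for ABT-737 replicate 3 with vehicle replicate 4. The rule therefore does not establish pairing, and the block is given as an alternative only. No 2 libraries agreed within sampling noise. All 10 members are named, and of each other list at most 4 genes, those with the smallest p in kidney or liver with ABT-737; 1 gene that this rule names is not reported here. Members and lists were chosen with earlier results of these data known. Likeness was computed on log2(CPM + 1). Ratios, markers, motifs and figures used Python 3.11.15.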

Additional observations from a re-analysis of the deposited data

Results flagged for a closer look

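In groups of 4 libraries, a library far from the others was looked for in each of the 10 genes; 30 groups were checked, and chance marks about 1 in 20. H2-D1 stood out in both cases found. Young kidney replicate 2 was at 521.5 CPM, against 434.3 to 438.3 in the other 3, and young liver replicate 1 was at 722.2 CPM, against 894.1 to 920 in the others. Both lay far under the vehicle-treated libraries of their tissue. The third result is the difference of H2-D1 between tissues in its change with age, -1.22 on the log2 scale in lung against kidney (edgeR, joint fit, adjusted p = 0.0402).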

How the results depend on the processing

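Most counts of class I genes called kept within 1.5 times their value: 23 of 387 counts moved with 1 library left out and 17 of 115 under the other alternatives, and of the fold changes 7 of 1690 and 5 of 593 changed sign. In kidney 9 to 10 genes passed with ABT-737 and 10 with age whichever library was left out. Left-out libraries gave 1 to 6 genes in liver with ABT-737 (1 without ABT-737 replicate 4, 2 without replicate 3), 7 to 10 in liver with age, 0 to 4 in lung with ABT-737, 7 to 9 in lung with age, 0 to 5 in skin with age, 0 to 1 in skin for ABT-737 against young and 0 to 1 for the lung-kidney difference with age. In skin with age the count was 0 without vehicle replicate 5, young replicate 1 or young replicate 2, 1 without vehicle replicate 3 or 4 or young replicate 3, and 5 without ABT-737 replicate 3 or 4. The lung-kidney difference of H2-D1 was lost without any young or vehicle kidney, lung vehicle replicates 3 or 5, or young lungs 2 or 4. B2m rose with age in liver without vehicle replicate 3 (log2 1.06, adjusted p = 0.00685). DESeq2 called 3 genes in lung with ABT-737, 1 in lung for ABT-737 against young, 6 in skin with age and 1 in the kidney-liver difference with age. Asking for 10 counts in every library left 6 genes in young lung against kidney and 4 in liver with age, of 6 tested in each. With no filter beyond a summed count of 1, 2 genes passed in lung with ABT-737, 4 in skin with age and 0 in the lung-kidney difference with age. Fits of only the 2 groups compared gave 2 in liver with ABT-737, 2 in liver for ABT-737 against young and 5 in skin with age. With the replicate block 1 passed in liver with ABT-737, 0 in liver with age, 1 in lung with ABT-737, 3 in lung with age and 0 in the lung-kidney difference with age; in kidney 8 passed with ABT-737, Nlrc5 missing at an adjusted p of 0.0517. The numbers may not pair the samples in any tissue. Signs turned for Tap2 in skin with age (0.043 with 10 counts in every library, 0.018 with no filter, 0.0035 in the fit of 2 groups, -0.21 to 0.099 with a library left out), for B2m (0.40) and Psmb10 (0.41) in young lung against liver with 10 counts, and in skin with ABT-737 for H2-D1 (-0.32 to 0.092) and Nlrc5 (-0.63 to 0.022) with a library left out. The cause was not tested where a value moved. Depth limits Nlrc5, with 3 to 34 reads per liver, Tap2, with 2 to 8 reads per ABT-737-treated liver, and liver vehicle replicate 3, the shallowest library.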
